A study of Mus musculus with 2 samples.

Results

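The Hippo pathway genes examined here were the co-activators Yap1 and Wwtr1, the DNA-binding partners Tead1 to Tead4, the kinases Lats1 and Lats2 and the target genes Ctgf and Cyr61. They were taken by gene symbol from the deposited transcript tables of mouse mandibular prominences, the embryonic swellings that form the lower jaw and the front of the tongue. All 10 genes were found among 30723 gene symbols, with 29 of 59055 transcripts. FPKM, the fragments sequenced per kilobase of transcript and scaled to the depth of the library, averaged 1 or more in all 10, the filter that 12259 genes passed.

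One library came from embryos with floxed Kif3a (f/f) and Wnt1-Cre, and the other from embryos labelled control. Both were on a mixed CD1 background, and mandibular prominences of 10 embryos were pooled for each total RNA library. The labels place both at E11.5, but the name of the mutant table gives day 11. The table names also give different sequencing runs, so genotype cannot be told apart from run or from a possible stage difference. Kif3a encodes a subunit of the kinesin-2 motor that builds cilia. Wnt1-Cre recombines in the neural crest lineage, so the oral epithelium, endothelium, muscle precursors and blood in the same tissue kept the gene. What alleles the control embryos carried is not given in the sources used here.

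In the Hippo pathway the kinases MST and LATS phosphorylate YAP1 and TAZ, the product of Wwtr1, and hold them in the cytoplasm. Unphosphorylated YAP1 and TAZ enter the nucleus and activate transcription with TEAD factors, since they bind no DNA themselves. The pathway acts mostly on the protein, so the RNA of Yap1 or Lats1 gives the supply of the component and not its activity, whereas Ctgf and Cyr61 are commonly read as output. In mice, Yap1 and Wwtr1 are needed in the neural crest for the face to form.

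With 1 library per group there was no test between the groups, and no difference below has a replicate check. Each ratio is given as mutant over control with a 95% interval, the exact Clopper-Pearson interval on fragments approximated from the deposited coverage. It covers counting error only, so the spread that other pools of embryos would show is unknown. The libraries held about 24500000 fragments in the mutant and 24700000 in the control, rounded. Kif3a itself stood at 5.39 FPKM in the mutant and 11.46 FPKM in the control, a ratio of 0.471 (0.432 to 0.514). All 10 marker genes of mandibular mesenchyme passed the filter, with a summed level of 776 FPKM in the mutant and 870.1 FPKM in the control. Across all 12259 compared genes the median FPKM ratio was 0.902 and the median log2 ratio, taken with 1 added to each FPKM, was -0.13. Genes are placed above or below this median gene, because scaling both libraries to a common total moved it to 0.39. Under that scaling Yap1, Tead2 and Tead3 had log2 ratios above 0, and their side of the median gene was kept.

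None of these genes differed by as much as 2-fold: 0 of 10 reached a log2 ratio of 1 or -1, as 2.13% of all compared genes did. Over all genes 94 were at least 2-fold higher and 167 at least 2-fold lower. These were 132 and 129 after centring on the median gene, 125 and 137 with upper quartile scaling and 122 and 114 with the length trend removed. The median log2 ratio of the 10 was -0.10, close to the -0.13 of all genes, and 6 lay above the median gene and 4 below it. Measured from the median gene, Tead1 was furthest above it (0.72), followed by Lats1 (0.50) and Tead4 (0.40), and Cyr61 was furthest below it (-0.51). Yap1, Wwtr1, Tead2, Tead3, Lats2 and Ctgf lay within 0.17 of the median gene on the log2 scale.

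**Figure D1:**
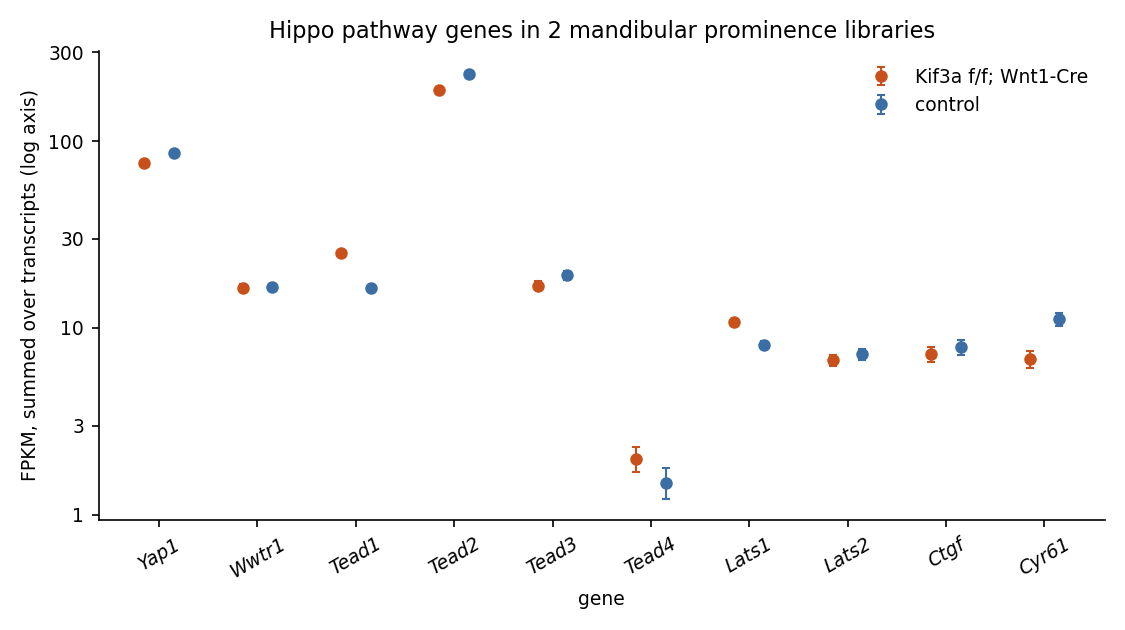
Summed FPKM (log axis) of each Hippo pathway gene in the mutant library (left point) and the control library (right point), 1 library each, with 95% Poisson counting intervals. Tead2 and Yap1 are the most abundant in both libraries, Tead1 is higher in the mutant at 25.1 against 16.4 FPKM, and Cyr61 is lower at 6.79 against 11.1 FPKM.

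**Figure D2:**
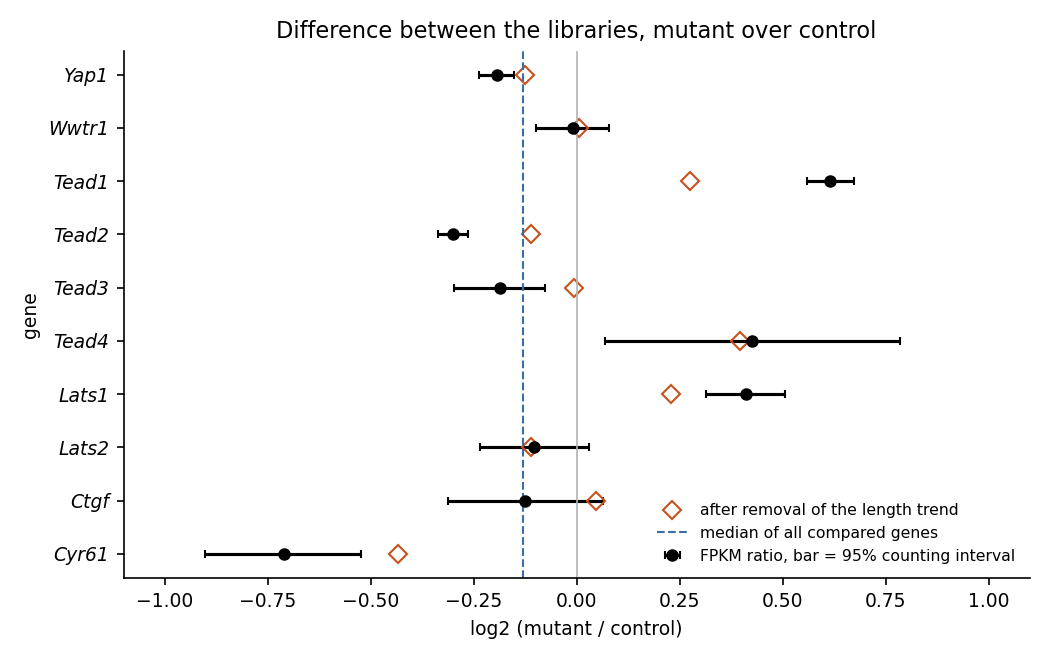
Log2 ratio of FPKM, mutant over control, for each gene (black points) with its 95% counting interval, the log2 ratio after removal of the trend with transcript length (open diamonds, with 1 added to each FPKM), and the median log2 ratio of all compared genes (dashed line, -0.13). Tead1, Tead4 and Lats1 lie right of the dashed line and of 0, and Cyr61 lies left of both, on both measures. The dashed line was taken with 1 added to each FPKM and before removal of the length trend. After removal the median of all genes was -0.00, so the diamonds are to be read against 0.

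The levels spanned about 2 orders of magnitude. In the mutant the order was Tead2, Yap1, Tead1, Tead3, Wwtr1, Lats1, Ctgf, Cyr61, Lats2 and Tead4, from 187 to 1.98 FPKM. In the control it was Tead2, Yap1, Tead3, Wwtr1, Tead1, Cyr61, Lats1, Ctgf, Lats2 and Tead4, from 230.2 to 1.47 FPKM. Neighbours whose counting intervals overlapped were Tead3 with Wwtr1, Ctgf with Cyr61 and Cyr61 with Lats2 in the mutant. In the control they were Wwtr1 with Tead1, Lats1 with Ctgf and Ctgf with Lats2. Tead1 thus ranked 2990 of all compared genes in the mutant and 4784 in the control, while Cyr61 ranked 7826 in the mutant and 6304 in the control. With 2 libraries no pattern across samples exists, so no genes of similar pattern were sought.

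Both co-activators were near the median gene. Yap1 (chromosome 9, 7932001 to 8004596, GRCm38 as all coordinates) stood at 75.98 FPKM in the mutant and 86.9 FPKM in the control. Its ratio was 0.874 (0.849 to 0.900), a log2 ratio of -0.19 that lay 0.06 under the median gene, and it ranked 855 of 12259 genes in both libraries. Wwtr1 (chromosome 3, 57455644 to 57575910) stood at 16.4 FPKM in the mutant and 16.5 FPKM in the control, a ratio of 0.993 (0.934 to 1.06). The interval of Wwtr1 includes a ratio of 1. Yap1 was 4.62 times as abundant as Wwtr1 in the mutant and 5.25 times in the control.

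The 2 full-length Yap1 transcripts differed in length by 48 bases, 4169 and 4121, the size of an exon of 16 codons at chr9:7950492-7950539 (minus strand, GRCm38). It is exon 6 of 9 in the longer annotated form. In human YAP1 the matching residues lie in the part of the protein that activates transcription. The exon is shown in capitals with 20 bases of each neighbouring exon, because its size is the length difference between the main forms of the co-activator. Exon structure is not given, so which transcript has the exon is read from the lengths and the annotation.
Yap1 exon 6: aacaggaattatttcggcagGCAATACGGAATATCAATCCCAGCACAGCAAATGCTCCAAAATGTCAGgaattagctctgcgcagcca

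The transcript with this exon stood at 17.2 FPKM in the mutant and 16.4 FPKM in the control, a ratio of 1.05 (0.981 to 1.12). The transcript without it stood at 58.6 FPKM in the mutant and 70.4 FPKM in the control, a ratio of 0.832 (0.805 to 0.860). The lower Yap1 sum thus lay in the form without the exon. The form with the exon made up 22.7% of the pair in the mutant and 18.9% in the control. The exon is 1.15% of its transcript, and the files give no error for how Cufflinks divides fragments between transcripts that share the rest, so intervals of single transcripts are too narrow. The other transcript, of 5282 bases, matches one annotated as a retained intron and stood at 0.223 FPKM in the mutant and 0.0545 FPKM in the control, on about 33 and 7 fragments.

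For Wwtr1, the main transcript of 4750 bases stood at 14.97 FPKM in the mutant and 16.1 FPKM in the control. The shorter one of 4671 bases stood at 1.46 FPKM in the mutant and 0.425 FPKM in the control, a ratio of 3.44 (2.50 to 4.79). It held 8.90% of Wwtr1 FPKM in the mutant and 2.57% in the control. The sum over both was nearly the same in the 2 libraries. Since the 2 transcripts share their 3′ end and no error is given for how Cufflinks divides fragments between them, their interval is too narrow.

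**Figure D3:**
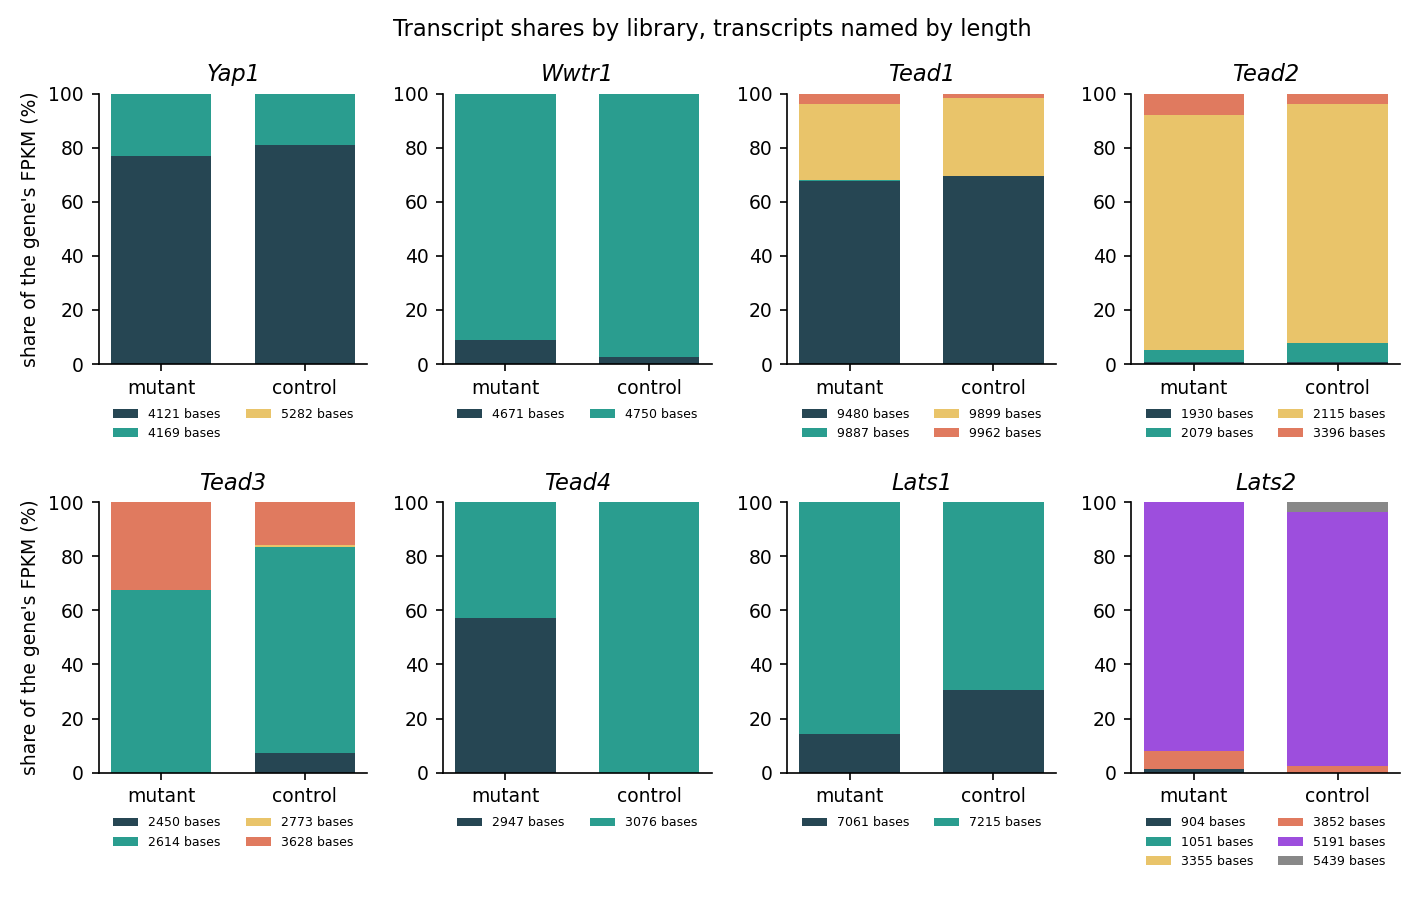
Share of the gene's FPKM (%) held by each transcript in the mutant (left bar) and the control (right bar), 1 library each, for the 8 genes with several transcripts, which are named by length in bases. The 2947-base transcript of Tead4 holds 57.3% in the mutant and 0.0116% in the control, and the 3628-base transcript of Tead3 holds 32.3% against 15.9%.

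The TEAD factors, which carry YAP1 and TAZ to DNA, were dominated by Tead2, the family member known for its high level in early mouse embryos. Tead2 (chromosome 7, 45215753 to 45233619) stood at 187 FPKM in the mutant and 230.2 FPKM in the control, a ratio of 0.812 (0.792 to 0.833). It made up 81.0% of the summed TEAD level in the mutant and 86.1% in the control. The log2 ratio of Tead2, -0.30, lay 0.17 under the median gene, and 28.9% of the 501 genes nearest in length lay lower. The sum over the TEAD genes was 231 FPKM in the mutant and 267 FPKM in the control.

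Most of Tead2 came from the transcript of 2115 bases, at 162 FPKM in the mutant and 204 FPKM in the control. The 3396-base transcript went the other way, at 15.0 FPKM in the mutant and 8.95 FPKM in the control, a ratio of 1.68 (1.53 to 1.83). It matches in position and length an annotated transcript whose first exon runs on through what is elsewhere the first intron. The transcript of 2079 bases stood at 8.14 FPKM in the mutant and 16.2 FPKM in the control, and that of 1930 bases at 1.77 and 1.36 FPKM in the mutant and the control.

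Tead1 was the member with the highest log2 ratio. Tead1 (chromosome 7, 112679320 to 112906805) stood at 25.1 FPKM in the mutant and 16.4 FPKM in the control, a ratio of 1.53 (1.47 to 1.59). Its log2 ratio of 0.59 was above that of 97.3% of all compared genes. Tead2 was 7.45 times as abundant as Tead1 in the mutant and 14.1 times in the control, and Tead1 made up 10.9% of the summed TEAD level in the mutant and 6.13% in the control.

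Tead1 also has long transcripts, and long transcripts had higher log2 ratios in general in these libraries. For the 425 genes nearest to it in length, from 8012 to 19827 bases, the median was 0.31, and 79.8% of them lay below Tead1. With the length trend removed, its log2 ratio was 0.28, still the second highest of the 10 genes after Tead4.

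All 4 Tead1 transcripts were higher in the mutant. The main one of 9480 bases, identical in position and length to an annotated transcript, stood at 17.0 FPKM in the mutant and 11.4 FPKM in the control, a ratio of 1.49 (1.42 to 1.56). In the control this transcript carried the Cufflinks status LOWDATA, given to loci that are shallowly covered or too complex to resolve, and about 2719 fragments were assigned to it. The 3 transcripts with another first exon upstream were not so marked, and together they stood at 8.13 FPKM in the mutant and 4.98 FPKM in the control. Without the marked transcript the log2 ratio of Tead1 was 0.61.

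The upstream transcripts differ by 2 small coding exons. The files give no exon structure, so the exons are read from the lengths and the annotation. The 9962-base transcript has a length that fits a 63-base exon of 21 codons at chr7:112841888-112841950 and a 12-base exon of 4 codons at chr7:112856053-112856064, both on the plus strand, and the 9899-base one fits the 12-base exon alone. The exon after the 63-base one, at chr7:112842040-112842102, is also 63 bases long, and the pair is printed because the 2 are alike. Capitals mark the 44 of 63 positions at which they have the same base, and in the third line the 12-base exon with 20 bases on each side in lower case.
Tead1 exon 4: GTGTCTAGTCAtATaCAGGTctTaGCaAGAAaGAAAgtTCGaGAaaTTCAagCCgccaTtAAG
Tead1 exon 5: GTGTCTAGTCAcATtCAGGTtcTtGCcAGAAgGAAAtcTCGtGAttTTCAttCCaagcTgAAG
Tead1 exon 6: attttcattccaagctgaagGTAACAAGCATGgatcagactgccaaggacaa

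The transcript with the first of the pair stood at 1.02 FPKM in the mutant and 0.292 FPKM in the control, a ratio of 3.48 (2.69 to 4.58) on about 280 and 73 fragments. It held 4.05% of Tead1 FPKM in the mutant and 1.78% in the control. The 9899-base transcript stood at 6.98 FPKM in the mutant and 4.69 FPKM in the control. Transcripts with the 12-base exon held 31.8% of Tead1 FPKM in the mutant and 30.4% in the control, so this exon's share was much the same. The 9887-base transcript without either exon stood at 0.140 FPKM in the mutant and under 1 fragment in the control.

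Tead3 (chromosome 17, 28331673 to 28350805) stood at 16.8 FPKM in the mutant and 19.2 FPKM in the control, a ratio of 0.878 (0.813 to 0.949). Its log2 ratio of -0.18 lay 0.05 under the median gene and was the same as that of its length neighbours within 0.01. The main transcript of 2614 bases stood at 11.4 FPKM in the mutant and 14.6 FPKM in the control. The longest, of 3628 bases, stood at 5.44 FPKM in the mutant and 3.04 FPKM in the control, a ratio of 1.79 (1.54 to 2.07). The 2450-base transcript was assigned under 1 fragment in the mutant and stood at 1.37 FPKM in the control. With 3 fragments taken as the floor of a library, it was at least 30.1-fold lower in the mutant. That bound covers counting only, because the Tead3 transcripts share their 3′ end and no error is given for how Cufflinks divides fragments between them.

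Tead4, known in mice for its part in forming the trophectoderm, was the least abundant member. It lies on chromosome 6 (128227143 to 128300813) and stood at 1.98 FPKM in the mutant and 1.47 FPKM in the control, a ratio of 1.34 (1.05 to 1.72) on about 158 and 115 fragments. Its log2 ratio of 0.27 was above 92.8% of the 501 genes nearest in length and was 0.40 with the length trend removed. The 2 transcripts differ in length by 129 bases, the size of an exon of 43 codons at chr6:128247960-128248088 on the minus strand. As for Tead1, the exon is read from the lengths and the annotation. It is exon 5 of 12 in the annotated form that contains it, and it is shown in capitals with 20 bases on each side because the forms with and without it were divided differently in the 2 libraries.
Tead4 exon 5: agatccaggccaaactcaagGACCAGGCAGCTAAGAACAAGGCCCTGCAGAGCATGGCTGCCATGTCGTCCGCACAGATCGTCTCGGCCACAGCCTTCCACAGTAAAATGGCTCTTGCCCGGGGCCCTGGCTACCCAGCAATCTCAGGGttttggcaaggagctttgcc

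The transcript with this exon stood at 0.846 FPKM in the mutant and 1.47 FPKM in the control, a ratio of 0.574 (0.418 to 0.778). The transcript without it stood at 1.13 FPKM in the mutant and was assigned under 1 fragment in the control, at least 28.2-fold higher in the mutant against a floor of 3 fragments. The form with the exon thus made up 42.7% of Tead4 FPKM in the mutant and 99.99% in the control. The exon is 4.19% of the longer transcript and only about 115 fragments covered the whole gene in the control, so the division rests on few fragments. When the transcript with the exon was used alone, the log2 ratio of Tead4 was -0.42, below the median gene.

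The LATS kinases, which phosphorylate YAP1 and TAZ, differed from each other. Lats1 (chromosome 10, 7681209 to 7716461) stood at 10.8 FPKM in the mutant and 8.10 FPKM in the control, a ratio of 1.33 (1.24 to 1.42). Its log2 ratio of 0.37 was above that of 93.4% of all genes. Among the 501 genes nearest in length (6553 to 8278 bases) the median was 0.14, and with the length trend removed Lats1 had 0.23. Its transcript of 7215 bases stood at 9.21 FPKM in the mutant and 5.63 FPKM in the control, a ratio of 1.64 (1.52 to 1.77). The one of 7061 bases, which starts further downstream, went the other way, at 1.55 FPKM in the mutant and 2.48 FPKM in the control.

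Lats2, itself a known target of YAP1 and TEAD and so part of a feedback loop, stood at 6.71 FPKM in the mutant and 7.21 FPKM in the control, a ratio of 0.931 (0.850 to 1.02). The interval includes a ratio of 1, and the log2 ratio of -0.09 lay 0.04 above the median gene. Lats1 was 1.60 times as abundant as Lats2 in the mutant and 1.12 times in the control. The main Lats2 transcript of 5191 bases, on chromosome 14 from 57689662 to 57746123, held 92.1% of the level in the mutant and 93.9% in the control. A transcript of 3852 bases stood at 0.430 FPKM in the mutant and 0.177 FPKM in the control, and one of 5439 bases was assigned under 1 fragment in the mutant and stood at 0.265 FPKM in the control. The others were assigned under 3 fragments in each library, among them 1 that reaches into the neighbouring gene Xpo4, which stood at 17.6 FPKM in the mutant and 10.7 FPKM in the control.

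The 2 target genes, which encode secreted matricellular proteins of the CCN family, did not differ alike. Cyr61 (chromosome 3, 145646971 to 145649985, 1 transcript of 2028 bases) stood at 6.79 FPKM in the mutant and 11.1 FPKM in the control. The mutant level was 1.64-fold lower (1.44 to 1.87), from about 385 fragments against 576. The log2 ratio of -0.64 was the lowest of the 10 genes, and 4.34% of all compared genes lay lower. Among genes of its own length the place of Cyr61 was much the same: the 501 nearest had a median of -0.20, 4.39% of them lay lower, and with the length trend removed Cyr61 had -0.43.

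Ctgf (chromosome 10, 24595442 to 24598682, 1 transcript of 2402 bases) stood at 7.24 FPKM in the mutant and 7.90 FPKM in the control. Its ratio of 0.917 (0.805 to 1.05) has an interval that includes 1, and its log2 ratio of -0.11 lay 0.02 above the median gene. Ctgf was thus 1.07 times as abundant as Cyr61 in the mutant and 0.710 times in the control. A low clone gene, AK014660, overlaps Ctgf, at 0.0785 FPKM in the mutant and 0.0459 FPKM in the control, and the strandedness of the libraries is not given in the sources used here.

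Markers of several cell types also differed between the libraries. All 10 endothelial markers passed the filter, none was at 0 in either library and 9 of 10 lay below the median gene (Tek, at -0.04, lay above it), with a summed level of 68.8 FPKM in the mutant and 103 FPKM in the control. The 8 macrophage markers summed to 15.2 FPKM in the mutant and 26.0 FPKM in the control. Cyr61 is also an immediate early gene. Of 12 others of that class 7 were compared, 6 of which lay under the median gene, 1 of the 12 was listed at 0 in a library, and the 12 summed to 68.9 FPKM in the mutant and 88.3 FPKM in the control. With the length trend removed, 5 of the 7 lay below 0 and 2 above, with a median of -0.15. The 8 muscle markers summed to 13.5 FPKM in the mutant and 45.0 FPKM in the control, and 7 red blood cell markers to 7310.2 FPKM in the mutant and 25886 FPKM in the control, with none at 0. The 10 oral epithelial markers summed to 208 FPKM in the mutant and 182 FPKM in the control. Of these 8 lay above the median gene, while Krt15 stood at 6.39 FPKM in the mutant and 15.2 FPKM in the control and Krt5 at 8.81 FPKM in the mutant and 15.2 FPKM in the control. The 8 neuron markers summed to 20.1 FPKM in the mutant and 20.6 FPKM in the control. Of these 4 were compared, 2 above the median gene and 2 below. The 6 Schwann and glia markers summed to 6.86 FPKM in the mutant and 10.2 FPKM in the control, and of 3 compared 2 lay above the median gene. The part of these cell types and of the immediate early genes in the Cyr61 difference was not tested. In bulk tissue fewer cells of a type and less RNA per cell cannot be told apart.

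TEAD factors bind the sequence GGAATG, read on the other strand as CATTCC. This motif was searched on both strands in windows of 250 bases before to 50 after the gene starts in RefSeq (GRCm38.p6), in which 7 of the 10 genes had an entry. Of those, 5 held a match (Yap1, Wwtr1, Tead3, Lats2 and Cyr61), and Tead2 and Lats1 held none. Over all genes 16.6% held a match in at least 1 of their windows. Genes with several windows have more places for a match. Counted by window, 7 of 11 held a match, against 14.7% of all 32851 windows. Tead3 and Lats2 also had a window without a match, and Ctgf, Tead1 and Tead4 had no entry. The windows of Cyr61 and Lats2, the target genes among them, and of Yap1 are printed with the motif in capitals, at chr3:145649936-145650235, chr14:57746074-57746373 and chr9:8004547-8004846, all on the minus strand.
Cyr61: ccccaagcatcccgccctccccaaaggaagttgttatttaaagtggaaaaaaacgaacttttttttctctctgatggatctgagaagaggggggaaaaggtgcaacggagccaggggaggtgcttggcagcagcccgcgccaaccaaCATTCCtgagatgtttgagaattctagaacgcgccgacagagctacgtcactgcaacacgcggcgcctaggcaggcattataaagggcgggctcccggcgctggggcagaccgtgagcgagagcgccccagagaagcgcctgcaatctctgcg
Lats2: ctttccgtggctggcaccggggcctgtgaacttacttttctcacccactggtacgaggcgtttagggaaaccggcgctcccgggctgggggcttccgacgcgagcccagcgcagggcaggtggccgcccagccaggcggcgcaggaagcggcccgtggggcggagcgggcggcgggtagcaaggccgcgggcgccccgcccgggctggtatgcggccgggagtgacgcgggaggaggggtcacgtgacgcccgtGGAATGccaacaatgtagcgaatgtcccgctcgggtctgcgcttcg
Yap1: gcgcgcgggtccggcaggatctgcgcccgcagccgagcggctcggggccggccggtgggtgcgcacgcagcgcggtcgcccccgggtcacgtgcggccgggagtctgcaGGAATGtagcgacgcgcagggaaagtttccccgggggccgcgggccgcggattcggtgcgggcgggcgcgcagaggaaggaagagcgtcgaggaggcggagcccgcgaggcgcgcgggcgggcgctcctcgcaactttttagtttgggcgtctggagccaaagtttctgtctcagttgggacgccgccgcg

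The match began at position -103 from the start of Cyr61, at -141 for Yap1 and at +5 for Lats2. The 5 genes with a match had log2 ratios of -0.64 (Cyr61), -0.19 (Yap1), -0.18 (Tead3), -0.09 (Lats2) and -0.01 (Wwtr1). Tead2 and Lats1, without a match, had -0.30 and 0.37. A match is a run of letters and does not show that a TEAD factor bound there in this tissue.

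**Figure D4:**
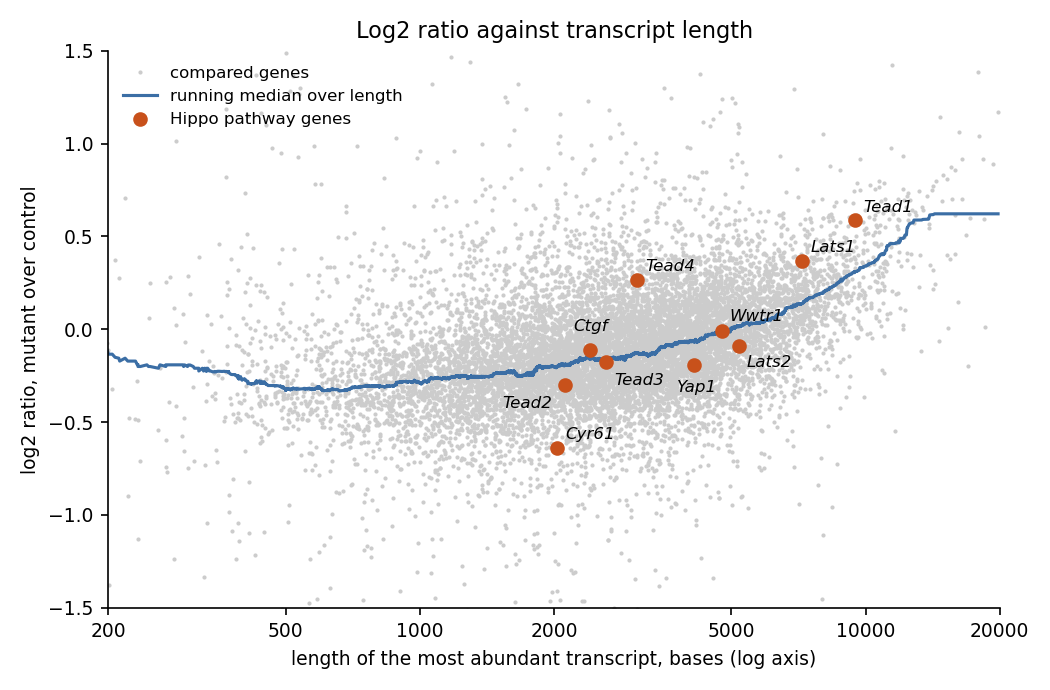
Log2 ratio (mutant over control) against the length of the most abundant transcript (bases, log axis) for the compared genes (grey), their running median over length (line) and the 10 Hippo pathway genes (orange). Lats1 and Tead1 lie at the long end, above a rising running median, while Cyr61 and Tead4 lie off the line among genes of middle length; 145 compared genes fall outside the axes.

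Transcripts within a gene were divided differently between the libraries as well. In 5 of the 8 genes with several transcripts (Yap1, Tead1, Tead2, Tead3 and Lats1) the longest held a larger share in the mutant, and in the other 3 (Wwtr1, Tead4 and Lats2) a larger share in the control. Of the 7954 compared genes with several transcripts, the longest held a larger share in the mutant in 54.9% and in the control in 44.9%, so the count among the Hippo genes is a description only. Among the main transcripts alone, Yap1, Tead2 and Tead3 had log2 ratios of -0.26, -0.33 and -0.33, Lats1 had 0.62 and Tead1 0.53, and Tead4 had -0.42 as given above.

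The upstream part of the pathway was described by lists chosen from general knowledge. The 21 kinases and scaffolds, among them the MST kinases Stk3 and Stk4 and the adaptors Sav1, Mob1a and Mob1b, all passed the filter, with a median log2 ratio of -0.01. Of them 14 lay above the median gene and 7 below, and 0 reached a log2 ratio of 1 or -1 with 1 added to each FPKM. With the length trend removed, 12 lay above 0 and 9 below, with a median of 0.03. Mob1b, which binds and activates LATS, stood at 11.4 FPKM in the mutant and 7.89 FPKM in the control, a ratio of 1.44 (1.30 to 1.60), and had 0.61 with the length trend removed. Strn, a scaffold of the phosphatase complex that acts on MST, stood at 6.71 FPKM in the mutant and 4.43 FPKM in the control, and Mink1, a kinase that acts on LATS, at 13.4 FPKM in the mutant and 10.04 FPKM in the control. Taok1, a kinase that activates MST, had the highest log2 ratio, 0.72, but its transcript has 12409 bases and the value was 0.17 with the length trend removed. The most abundant, Map4k4, stood at 62.96 FPKM in the mutant and 63.5 FPKM in the control.

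Of 25 junction and polarity genes 23 passed the filter, and they had a median log2 ratio of -0.00, with 16 above the median gene and 7 below, and 0 reached a log2 ratio of 1 or -1 with 1 added to each FPKM. With the length trend removed their median was -0.03, below the median gene. Dlg5, a scaffold that binds MST, stood at 27.0 FPKM in the mutant and 34.7 FPKM in the control, a ratio of 0.778 (0.748 to 0.810). Its log2 ratio of -0.35 became -0.54 with the length trend removed. Fjx1, a kinase of the FAT and DCHS cadherins, stood at 12.4 FPKM in the mutant and 15.8 FPKM in the control. Tjp1, a tight junction scaffold, stood at 22.7 FPKM in the mutant and 18.4 FPKM in the control. The giant cadherin gene Fat3 stood at 1.49 FPKM in the mutant and 0.649 FPKM in the control, an FPKM ratio of 2.29 (1.99 to 2.65). With a transcript of 18468 bases, its log2 ratio of 0.59, with 1 added to each FPKM, became -0.03 with the length trend removed. Ctnna1, the alpha-catenin that tethers YAP1 at junctions, was the most abundant at 83.5 FPKM in the mutant and 87.4 FPKM in the control.

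Among 17 other partners of TEAD and YAP1, 14 passed the filter, 7 on each side of the median gene, and their median log2 ratio was -0.14. Vgll2, a TEAD cofactor of skeletal muscle and craniofacial tissue, was the highest, at 8.57 FPKM in the mutant and 4.87 FPKM in the control, a ratio of 1.76 (1.46 to 2.13). Runx2 stood at 2.55 FPKM in the mutant and 3.48 FPKM in the control. The 14-3-3 genes Ywhab and Ywhae, whose products hold phosphorylated YAP1 in the cytoplasm, stood at 123 and 447 FPKM in the mutant, against 153 and 551 FPKM in the control.

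A signature of 22 YAP and TAZ target genes known from human tumours, which includes Ctgf, Cyr61 and Lats2, had a median that lay above or below the median gene depending on the setting. Of its members 20 passed the filter, 12 above the median gene and 8 below, with a median log2 ratio of -0.10. On the same log2 scale 1 was at least 2-fold lower, a class that held 1.36% of all genes, and 0 were at least 2-fold higher (0.767% of all genes). With the length trend removed 14 of the 20 lay below 0 and the median was -0.20, where all genes had 6087 above 0 and 6145 below. The list's median was also below that of all genes at a mean FPKM of 5 or more (-0.22 against -0.14) and with no filter (-0.09 against -0.05). The gene past 2-fold was Foxf2, also a Hedgehog target, at 2.96 FPKM in the mutant and 18.5 FPKM in the control. Igfbp3, an IGF binding protein gene and the most abundant member, stood at 18.4 FPKM in the mutant and 33.7 FPKM in the control, a ratio of 0.546 (0.508 to 0.586), and the growth arrest gene Gadd45a at 3.44 FPKM in the mutant and 6.81 FPKM in the control.

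Of the 6 CCN genes, 3 passed the filter, with a median log2 ratio of -0.64, that of Cyr61 itself. The size of this median depended on the setting. It was -0.26 with a pseudocount of 5 and -0.13 with no filter, where all genes had -0.09 and -0.05. Wisp1, a CCN gene known in bone and connective tissue, stood at 1.01 FPKM in the mutant and 2.18 FPKM in the control, a ratio of 0.463 (0.374 to 0.578), beside Cyr61 and Ctgf as given above. By summed FPKM, Wisp1 and Cyr61 lay below the median gene and Ctgf near it. With the most abundant transcript alone the list had a median of -0.12, the value of Wisp1, between Cyr61 at -0.64 and Ctgf at -0.11. All genes had -0.15 in that setting, so Wisp1 changed side.

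**Figure D5:**
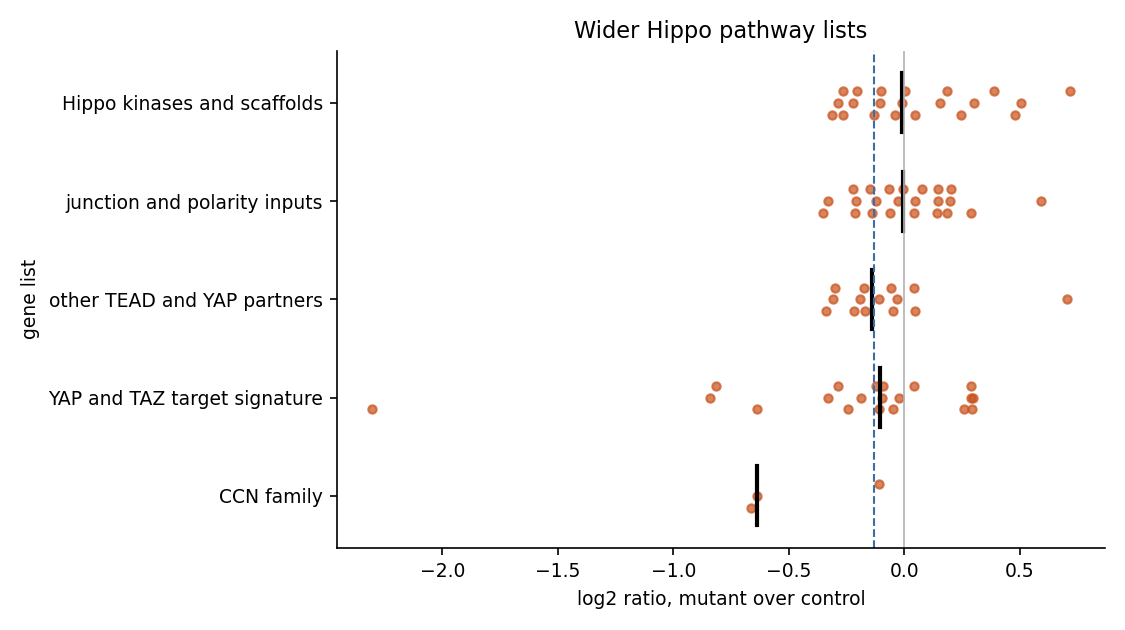
Log2 ratio (mutant over control) of each gene over the filter in 5 lists of the wider Hippo pathway (points, spread vertically for visibility), the median of each list (black bar) and the median of all compared genes (dashed line, -0.13). The medians of the kinases and scaffolds (-0.01), junction and polarity inputs (-0.00), other partners (-0.14) and target signature (-0.10) lie near the dashed line, the median of the 3 CCN genes (-0.64) lies left of it, and Foxf2 is the far left point at -2.30.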

How the data were processed

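RNA of 2 mandibular prominence pools, 1 library per group, was measured by the study. The authors deposited per transcript the FPKM, a coverage signal, the length and a status, per the file headers. The tool was Cufflinks, per the names of the deposited tables. Aligner, versions and strandedness: not given in the sources used here. Build mm9 stands in the submitters' processing notes, but 72.3% of 45350 transcripts had an end, or a start after adding 1, identical to GENCODE M21 (GRCm38), so coordinates are given on GRCm38, 1-based.

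Of 59120 lines in each table, 65 had displaced columns and were left out. FPKM was summed per gene symbol. Log2 ratios used a pseudocount of 1, for genes whose FPKM averaged at least 1. Fragments are coverage times length divided by 153 bases in the mutant and 156 bases in the control, the median of that product where it lay between 80 and 220 bases in single-transcript genes over 1500 bases, and are approximate. The length trend is the running median of 501 genes, narrowed to 51 at the ends. The members, lists and alternatives were chosen with earlier results of these data known, and the immediate early list was added after the Cyr61 value was seen. Named genes were the 10 members, Kif3a and, of each list, the 4 largest log2 ratios in size and the most abundant gene, and other list genes are named as examples of its content. Interval and trend code was tested on simulated data (Python 3.11.15, scipy 1.17.1).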

Additional observations from a re-analysis of the deposited data

How the results depend on the processing

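No test exists with 1 library per group. No paired analysis was possible because each group has 1 library, and leaving out a library was not possible either. The scaling sets the sign of small log2 ratios, so genes are described by their side of the median gene, which a change of scaling can hardly move. The median log2 ratio of the 10 members was 0.0305 centred on the median gene, 0.0195 with upper quartile scaling, 0.42 with TPM-like scaling to a common total and 0.13 with TPM-like scaling without transcripts under 200 bases, and the median of all genes was 0.00, -0.01, 0.39 and 0.10 in these settings. With TPM-like scaling 1 member, Tead1, was at least 2-fold higher, at 1.15.

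Over the 12 other settings, 1 of them added after the data were seen, Wwtr1, Tead1 and Lats1 stayed above the median gene and Yap1, Tead2, Tead3 and Cyr61 below it. Not all of these settings could move a gene across the median. Centring, upper quartile and TPM-like scaling multiply a whole library by 1 factor, and the added setting, without the Lats2 transcript that reaches into Xpo4, left the values the same. Lats2 and Ctgf changed side in 2 and 1 of 12, and Tead4 in 1 of 11, with the most abundant transcript alone (-0.42). Cyr61 ranged from -0.70 to -0.11, Tead1 from 0.28 to 1.15 and Lats1 from 0.23 to 0.90. The counts of all genes at least 2-fold higher and lower were 179 and 312 with a pseudocount of 0.1, 36 and 56 with 5, 54 and 88 at a mean FPKM of 5 or more, and 465 and 70 with TPM-like scaling. Without transcripts under 200 bases that scaling gave 97 lower. Depth limits Tead4 most, and single transcripts under about 100 fragments.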
